A study of Mus musculus with 6 samples.

Results

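Cells divide by passing through a fixed order of steps, and 40 genes whose products carry out those steps are described here across the 6 libraries of a mouse uterus series. They were taken by symbol from the deposited table of 24964 gene symbols, and all 40 were found. They cover DNA replication (the Mcm2 to Mcm7 helicase, Pcna, Rrm1, Rrm2, Tyms and Top2a), the cyclins and kinases of each phase, the factors that switch these genes on or off, and the machinery of mitosis with the proliferation marker Mki67. The tissue was uterus around implantation sites on gestation day 13. There were 3 control libraries and 3 labelled deficient, whose genotype is given as a myometrial PGR knockout. PGR is the progesterone receptor, and the myometrium is the muscular wall of the uterus. Strain, age, other alleles and the driver of the deletion are not stated in the labels. The labels do not say whether libraries came from separate mice, so the spread behind each p-value is that of these libraries and may be technical.

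Levels are FPKM, fragments counted on a gene scaled by the length of its model and by the library's size, as the authors deposited them. Summed FPKM ranged from 357126 to 377091 per library, and the read depth of single libraries is unknown. Pgr, the gene named as deleted, was at 9.72, 8.33 and 12.1 FPKM in controls 1 to 3 and at 11.3, 12.4 and 7.73 in the libraries labelled deficient 1 to 3, so its level does not separate the groups, and the knockout group is named here by its label alone. Over all genes tested, control 3 correlated with controls 1 and 2 at 0.983 and 0.982, against 0.992 between those libraries. Deficient 3 correlated with deficient 1 and 2 at 0.976 and 0.971, against 0.991. Between the groups, control 3 correlated with deficient 1 and 2 at 0.977 each, and controls 1 and 2 with them at 0.969 to 0.974. Deficient 3 correlated with the controls at 0.964 to 0.969. These are correlations across genes on the log2(FPKM + 1) scale, and genes are not independent replicates. The third library of each group therefore stood apart from its group, and results are given with and without these libraries.

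As background, a cell commits to division in G1, when D-type cyclins with Cdk4 and Cdk6 phosphorylate the retinoblastoma protein Rb1 and free E2F factors. E2F factors turn on the genes of DNA replication. Later, the MuvB complex with B-Myb and Foxm1 turns on the genes of mitosis, many of them through a CCAAT box and a short element called the cell cycle genes homology region, CHR. In the pregnant uterus, stromal cells divide and then become decidual cells, many of them polyploid, and the muscle, vessels and glands also grow. Bulk RNA does not tell fewer dividing cells from less RNA of these genes per cell.

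Promoter windows of 5 members are shown first, because they show the elements that are counted by role further on, in mitotic, helicase and G1 genes. Windows came from RefSeq on build GRCm38.p6 and run from 250 bases before the annotated start to 30 after it, 5' to 3' on the gene's strand. Capitals mark 3 kinds of word. The CHR word is TTTGAA, with TTCGAA taken as a variant of it. The box called CCAAT is named by its own letters, which appear here as ATTGG when it lies on the other strand. The E2F words are TTTCCCGC, TTTCGCGC, TTTGCCGC and TTTGGCGC, in either direction. Ccnb2 encodes a mitotic cyclin (chr9:70421525-70421804, minus strand), Cdk1 the kinase it activates (chr10:69352883-69353162, minus strand), Mki67 the Ki-67 protein that coats mitotic chromosomes (chr7:135716350-135716629, minus strand), Mcm6 a helicase subunit (chr1:128359676-128359955, minus strand) and Cdk4 the G1 kinase (chr10:127063285-127063564, plus strand).
Ccnb2: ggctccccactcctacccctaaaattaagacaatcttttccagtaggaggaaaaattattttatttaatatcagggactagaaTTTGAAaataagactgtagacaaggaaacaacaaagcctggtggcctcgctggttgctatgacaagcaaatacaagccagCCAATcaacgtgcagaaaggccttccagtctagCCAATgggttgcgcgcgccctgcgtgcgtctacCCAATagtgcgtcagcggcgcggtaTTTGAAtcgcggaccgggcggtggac
Cdk1: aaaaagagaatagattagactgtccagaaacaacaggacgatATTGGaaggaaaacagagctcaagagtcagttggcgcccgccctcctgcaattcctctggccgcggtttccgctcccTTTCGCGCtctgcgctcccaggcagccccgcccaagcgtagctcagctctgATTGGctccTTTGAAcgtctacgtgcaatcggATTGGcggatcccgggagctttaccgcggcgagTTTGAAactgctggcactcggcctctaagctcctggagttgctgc
Mki67: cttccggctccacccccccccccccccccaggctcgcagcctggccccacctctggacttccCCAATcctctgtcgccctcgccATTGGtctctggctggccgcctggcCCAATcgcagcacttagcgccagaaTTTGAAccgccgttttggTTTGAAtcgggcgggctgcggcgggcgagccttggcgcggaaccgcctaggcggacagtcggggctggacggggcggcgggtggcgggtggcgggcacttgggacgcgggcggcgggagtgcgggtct
Mcm6: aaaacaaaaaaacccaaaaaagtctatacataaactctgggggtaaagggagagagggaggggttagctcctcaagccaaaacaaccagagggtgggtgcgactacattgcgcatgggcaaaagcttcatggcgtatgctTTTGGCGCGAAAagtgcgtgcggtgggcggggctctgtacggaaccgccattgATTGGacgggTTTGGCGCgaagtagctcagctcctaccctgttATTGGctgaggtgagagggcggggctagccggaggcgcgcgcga
Cdk4: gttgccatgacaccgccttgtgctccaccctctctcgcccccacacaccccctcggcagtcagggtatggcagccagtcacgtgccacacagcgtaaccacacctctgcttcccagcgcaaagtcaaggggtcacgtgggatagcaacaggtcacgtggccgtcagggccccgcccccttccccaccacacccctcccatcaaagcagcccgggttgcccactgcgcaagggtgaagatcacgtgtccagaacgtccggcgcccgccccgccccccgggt
The Ccnb2, Cdk1 and Mki67 windows each hold 2 CHR words and 3 CCAAT boxes, and the Cdk1 window also holds 1 E2F word. The Mcm6 window holds 3 E2F words, 2 of them overlapping on opposite strands, and 2 CCAAT boxes. The Cdk4 window holds none of these words.

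Across all 6 libraries no member passed the test between the groups, and the spread between libraries of a group was wide. Each gene was tested with limma on log2(FPKM + 1), labelled deficient minus control, over the 12500 genes that averaged 1 FPKM or more, and was called at a Benjamini-Hochberg adjusted p under 0.05. Of the 40 members 39 were tested, since Ccne2, cyclin E2, had a mean of 0.961 FPKM. The limma test called 0 of the 39, and 1 had an unadjusted p under 0.05, against 21.5% of all genes tested. Of all genes tested 3.34% were called, 1.99% lower and 1.34% higher in the libraries labelled deficient. The members' median difference was -0.17 on the log2 scale, and 33 of 39 estimates lay below 0, against a median of 0.06 over all genes tested, with 4390 of 12500 below 0. Intervals were wide. That of Mki67, for example, ran from -1.08 to 0.74 around a difference of -0.17, with a limma adjusted p of 0.83.

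Within each group, the third library differed from the other two in the members. Control 3 lay below controls 1 and 2 in 38 of 40 members, against 52.6% of all genes tested. Deficient 3 lay above deficient 1 and 2 in 37 of 40, against 38.1% of all genes tested. Both orders held in 36 of 40 members, which is 90.0%, against 21.7% of all genes tested. The members with both orders were all of the helicase, replication fork, mitotic and spindle genes, with Ccnd1, Ccnd2, Cdk6, all 3 cyclins of S phase, E2f1, Foxm1 and Cdkn2c. The other members were Ccnd3, Cdk4, Cdk2 and Rb1. Control 3 was the lowest of the 6 libraries in 30 members, against 34.3% of all genes tested. Deficient 3 was above control 3 in 39, all but Ccnd3, an order that 67.2% of all genes tested also had.

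**Figure D1:**
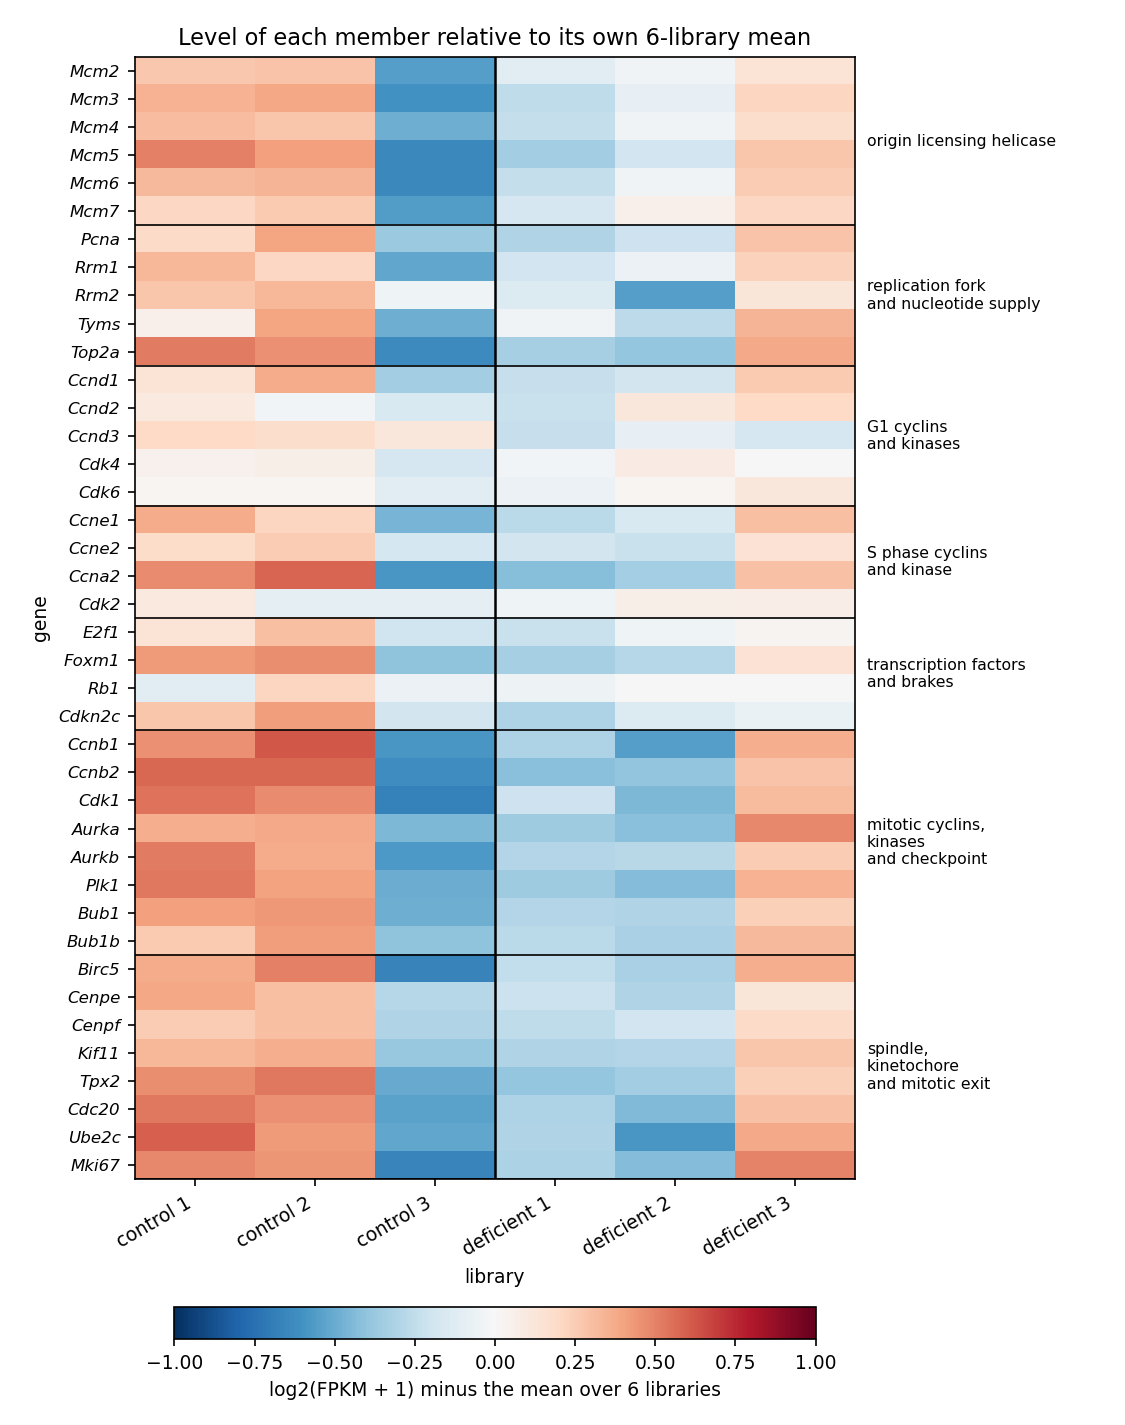
Colour gives log2(FPKM + 1) of each of the 40 members minus its own mean over the 6 libraries, with genes in rows by role and libraries in columns. Controls 1 and 2 and deficient 3 are mostly above the mean of each gene, and control 3 and deficient 1 and 2 mostly below it, while Cdk4, Cdk6, Cdk2 and Rb1 vary little.

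The 6 subunits of the Mcm2-7 helicase, which is loaded on origins in G1 and unwinds DNA in S phase, varied together. Mcm5 was at 12.4, 11.6 and 5.06 FPKM in controls 1 to 3 and at 6.46, 7.32 and 10.5 in deficient 1 to 3. Mcm2 was at 11.8, 11.9 and 6.22 FPKM in controls 1 to 3, and 8.84, 9.35 and 10.6 in deficient 1 to 3. Mcm3 was at 11.5, 11.9 and 5.49 FPKM against 7.27, 8.31 and 10.5. In each of the 6 genes control 3 was the lowest library and controls 1 and 2 the highest, with deficient 3 next. The highest library stood 1.86 to 2.46 times above the lowest. Means were close between the groups, at 9.98 ± 3.25 FPKM in controls and 9.61 ± 0.93 in the libraries labelled deficient for Mcm2 (SD, n = 3 each), a log2 difference of -0.0032 with SE 0.23.

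At the replication fork, Pcna, the sliding clamp of the DNA polymerases, was at 39.6, 46.0 and 26.6 FPKM in controls 1 to 3, and 28.0, 29.95 and 42.5 in deficient 1 to 3. Top2a, the topoisomerase that untangles newly copied DNA, was at 15.7, 15.1 and 6.52 FPKM against 8.28, 7.95 and 14.2. Both genes were lowest in control 3, and deficient 3 came close to controls 1 and 2. Rrm1 and Rrm2 encode the subunits of ribonucleotide reductase, which makes the DNA precursors. Both had control 3 below controls 1 and 2 and deficient 3 above deficient 1 and 2, but their lowest library differed. Rrm1 was at 14.9, 13.6 and 7.84 FPKM against 10.1, 11.2 and 13.9, lowest in control 3. Rrm2 was at 38.5, 40.1 and 30.7 FPKM against 28.7, 21.2 and 34.5, lowest in deficient 2. Tyms, thymidylate synthase, ranged from 2.38 FPKM in control 3 to 5.22 in control 2.

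The genes of G1 varied least of the role groups, by a median ratio of highest to lowest library of 1.36, and held the only member whose groups did not overlap. Cdk4 had the highest mean of the members, 67.4 FPKM, and was at 69.4, 70.2 and 59.8 in the controls and at 65.9, 71.3 and 67.6 in the libraries labelled deficient. Its highest library stood 1.19 times above its lowest, that of its partner kinase gene Cdk6 1.22 times. Ccnd1, cyclin D1, did vary: 41.6, 49.0 and 29.5 FPKM against 32.0, 33.2 and 45.5. Ccnd2, cyclin D2, lay between 2.78 and 4.06 FPKM in all libraries.

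Ccnd3, cyclin D3, was at 26.7, 26.2 and 25.2 FPKM in controls 1 to 3, and 19.6, 21.8 and 20.5 in deficient 1 to 3. Every control lay above every library labelled deficient, as in 8.16% of all genes tested. The means were 26.0 ± 0.79 and 20.6 ± 1.13 FPKM (SD, n = 3 each). Its log2 difference was -0.32 with SE 0.06 and an interval of -0.48 to -0.17, and its limma adjusted p of 0.054 missed the threshold. The call turned on the processing: the adjusted p was 0.018 with median-of-ratios scaling, 0.030 with quantile normalization, 0.049 over genes of at least 5 FPKM and 0.013 with array weights, and rose to 0.20 without control 1. Ccnd3 lies at chr17:47505051-47599691 on GRCm38, where an exon overlaps one of Bysl on the opposite strand, and the labels do not say whether strand was kept.

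Among the genes of S phase entry, Ccna2, cyclin A2, was at 13.3, 14.5 and 5.90 FPKM in controls 1 to 3, and 6.72, 7.19 and 11.6 in deficient 1 to 3. Ccne1, cyclin E1, was at 2.78, 2.39 and 1.11 FPKM against 1.42, 1.62 and 2.59. Both cyclins were lowest in control 3, and deficient 3 lay nearer to controls 1 and 2 than to the rest of its group. Their kinase gene Cdk2 stayed between 9.22 and 10.7 FPKM, and at 1.16 its ratio of highest to lowest library was the smallest of the 40.

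Of the transcription factors, Foxm1, which drives mitotic genes, was at 5.52, 5.71 and 2.68 FPKM in controls 1 to 3, and 2.86, 2.98 and 4.37 in deficient 1 to 3. E2f1, which drives replication genes, varied less: 3.90, 4.48 and 2.87 FPKM against 2.81, 3.32 and 3.52. Rb1, the brake on E2F factors, was at 5.52, 7.22 and 5.79 FPKM against 5.81, 6.10 and 6.09. Cdkn2c, an inhibitor of Cdk4 and Cdk6, was at 9.88, 11.0 and 6.92 FPKM against 6.27, 7.20 and 7.60. In Foxm1, E2f1 and Cdkn2c all 3 libraries labelled deficient lay below controls 1 and 2, while control 3 lay below all of them in Foxm1 and among them in E2f1 and Cdkn2c.

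The 8 genes of mitotic entry and the spindle checkpoint all had control 3 as the lowest library. Cdk1, the mitotic kinase, was at 12.2, 11.6 and 4.67 FPKM in controls 1 to 3, and 6.86, 5.64 and 10.2 in deficient 1 to 3. Ccnb1, cyclin B1, was at 7.08, 8.09 and 2.94 FPKM against 3.75, 3.02 and 6.57. Ccnb2, cyclin B2, was at 14.3, 14.2 and 5.64 FPKM against 6.64, 6.79 and 11.4. In these genes deficient 1 and 2 lay nearest to control 3, and deficient 3 nearest to controls 1 and 2. Aurka, the centrosomal kinase, went further, with deficient 3 at 7.501 FPKM above controls 1 and 2 at 6.85 and 6.95. Aurkb, the kinase of the chromosomal passenger complex, did not, with deficient 3 at 6.92 FPKM below controls 1 and 2 at 8.49 and 7.57. Plk1, Bub1 and Bub1b, a mitotic kinase and parts of the checkpoint, had means over the libraries of 7.77, 2.11 and 4.45 FPKM. Across the 8 genes the highest library stood 2.02 to 2.75 times above the lowest.

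Genes of the spindle, kinetochore and mitotic exit followed the same order. Mki67 was at 10.7, 10.4 and 4.30 FPKM in controls 1 to 3, and 5.72, 5.20 and 10.9 in deficient 1 to 3. Birc5, survivin, was at 5.77, 6.41 and 2.31 FPKM against 3.43, 3.18 and 5.74, and its ratio of highest to lowest library, 2.78, was the largest of the 40. Cdc20, an activator of the anaphase-promoting complex, was at 16.96, 16.1 and 7.58 FPKM against 9.06, 8.17 and 14.2. In these genes control 3 or deficient 2 was lowest. Ube2c, the ubiquitin-conjugating enzyme of that complex, was at 23.2, 20.5 and 10.2 FPKM against 11.96, 9.66 and 19.8. Cenpe and Cenpf, kinetochore proteins, had the lowest means of the tested members, 1.43 and 1.33 FPKM. Kif11 and Tpx2, which build the spindle, had means of 3.20 and 6.79 FPKM.

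**Figure D2:**
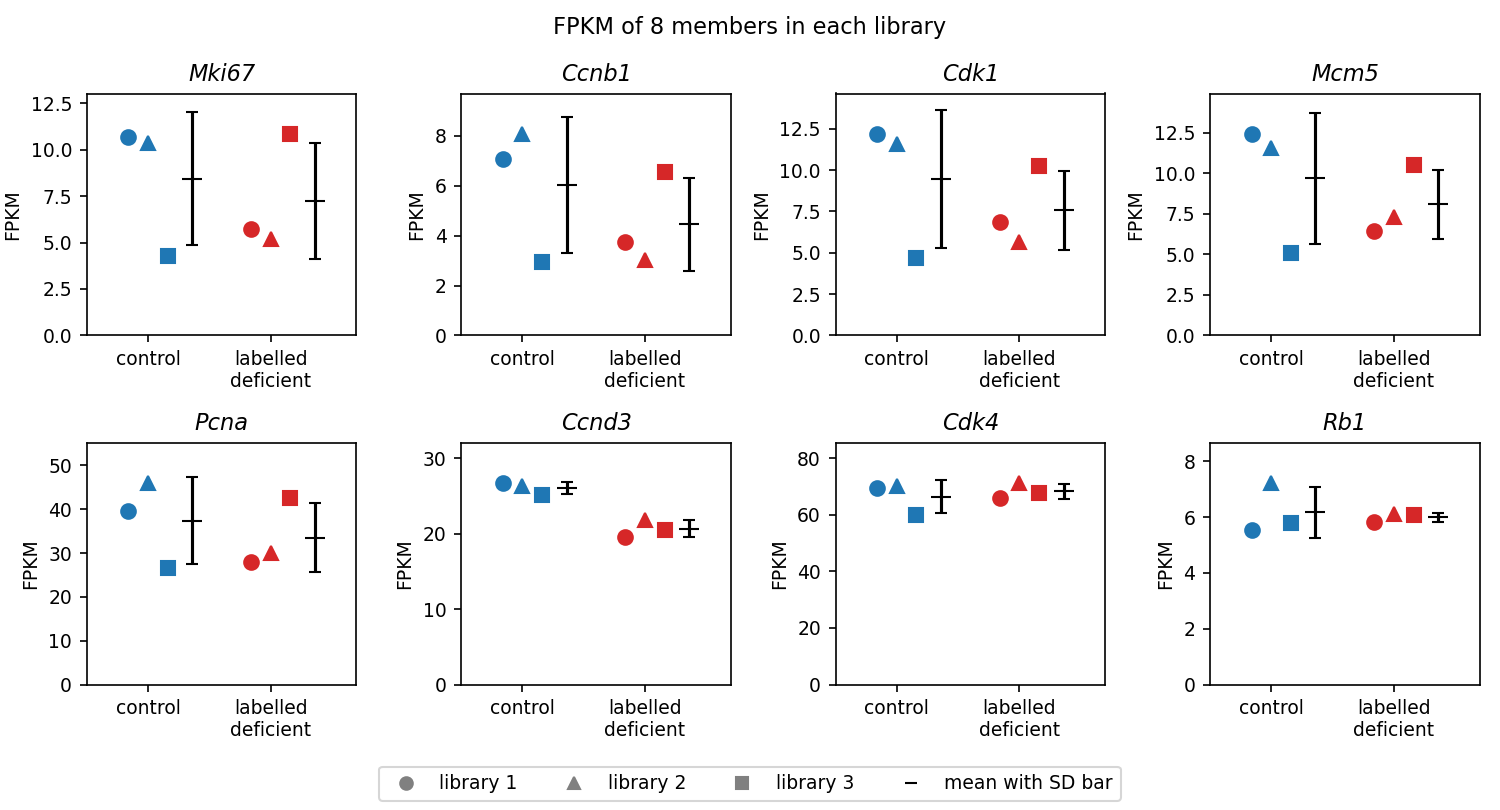
FPKM of 8 members on the vertical axis of each panel, from 0, for the 3 control and 3 labelled deficient libraries, with the mean and a bar of 1 SD beside each group. In Mki67, Ccnb1, Cdk1, Mcm5 and Pcna the third library of each group is far from the others of its group. The groups are separate in Ccnd3 and overlap in the other 7 panels.

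Over the 40 members the highest library stood a median of 2.15 times above the lowest, against 1.35 times over all genes tested. As a median deviation from each gene's mean over the libraries, on the log2 scale, the members were at 0.33 in control 1, 0.38 in control 2 and -0.49 in control 3, and at -0.25, -0.25 and 0.25 in deficient 1 to 3. All genes tested stayed between -0.07 and 0.04. Control 3 was low in every role group, from -0.58 in the helicase genes to -0.15 in the G1 genes. In deficient 2 the role groups were spread over a range. The mitotic group was at -0.41, the spindle group at -0.34 and the replication fork group at -0.27. The S phase genes were at -0.19, the transcription factors and brakes at -0.09, the helicase genes at -0.03 and the G1 genes at 0.02.

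**Figure D3:**
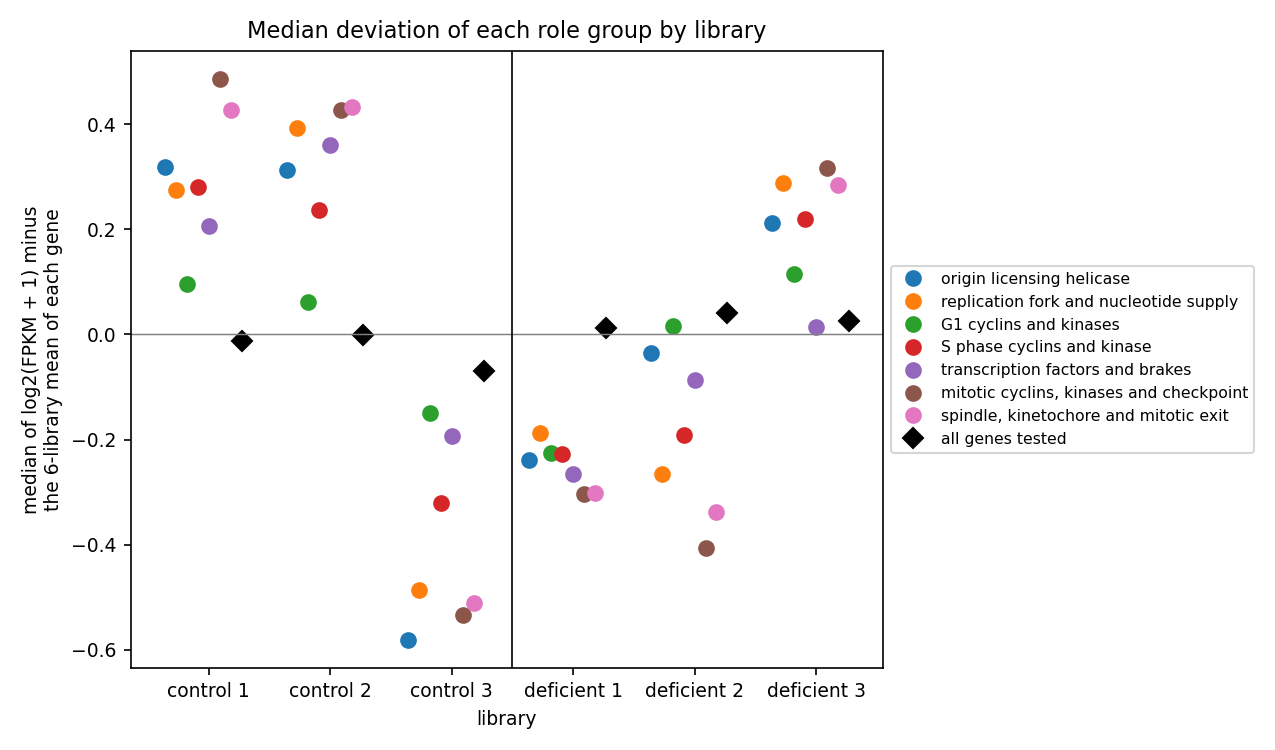
Median over each role group of log2(FPKM + 1) minus each gene's mean over the 6 libraries, by library, with all genes tested as black diamonds. In control 3 the helicase genes are at -0.58 and all genes tested at -0.07, and in deficient 3 the mitotic group is at 0.32 and all genes tested at 0.03.

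Leaving out control 3 and deficient 3 changed the count. These are the libraries that had been seen to run against a lower level in the libraries labelled deficient, and the choice was made after the values were seen. That choice favours lower calls and small errors in the members, so the counts and differences of the smaller comparison describe the 4 libraries left and give no independent evidence. In it 26 of the 39 tested members were called lower and 0 higher by limma, where 10.2% of all genes tested were called, 5.26% lower and 4.93% higher. The members' median log2 difference was -0.60, against 0.04 over all genes tested. Between the libraries left out, deficient 3 was the higher one in 39 of 40 members, against 67.2% of all genes tested, by a median of 1.86 times and by up to 2.53 times in Mki67. Leaving out 1 library at a time, the limma test called 0 of the members in each of the 6 fits, and the median difference was -0.46 without control 3, -0.36 without deficient 3 and between -0.08 and -0.05 without any other.

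By role, the median log2 differences over those 4 libraries were -0.80 in the mitotic genes, -0.78 in the spindle genes, -0.45 in the helicase genes and -0.09 in the G1 genes. Ccnb2 had the lowest value, -0.98, and Ccnb1, Ube2c and Ccna2 were at -0.97, -0.96 and -0.91. Top2a was at -0.85, Mki67 at -0.84 and Foxm1 at -0.76. The helicase genes ran from -0.72 in Mcm5 to -0.29 in Mcm7. Cdk2 was at 0.0032, Rb1 at -0.07, and Cdk4, Cdk6 and Ccnd2 between -0.09 and -0.03.

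**Figure D4:**
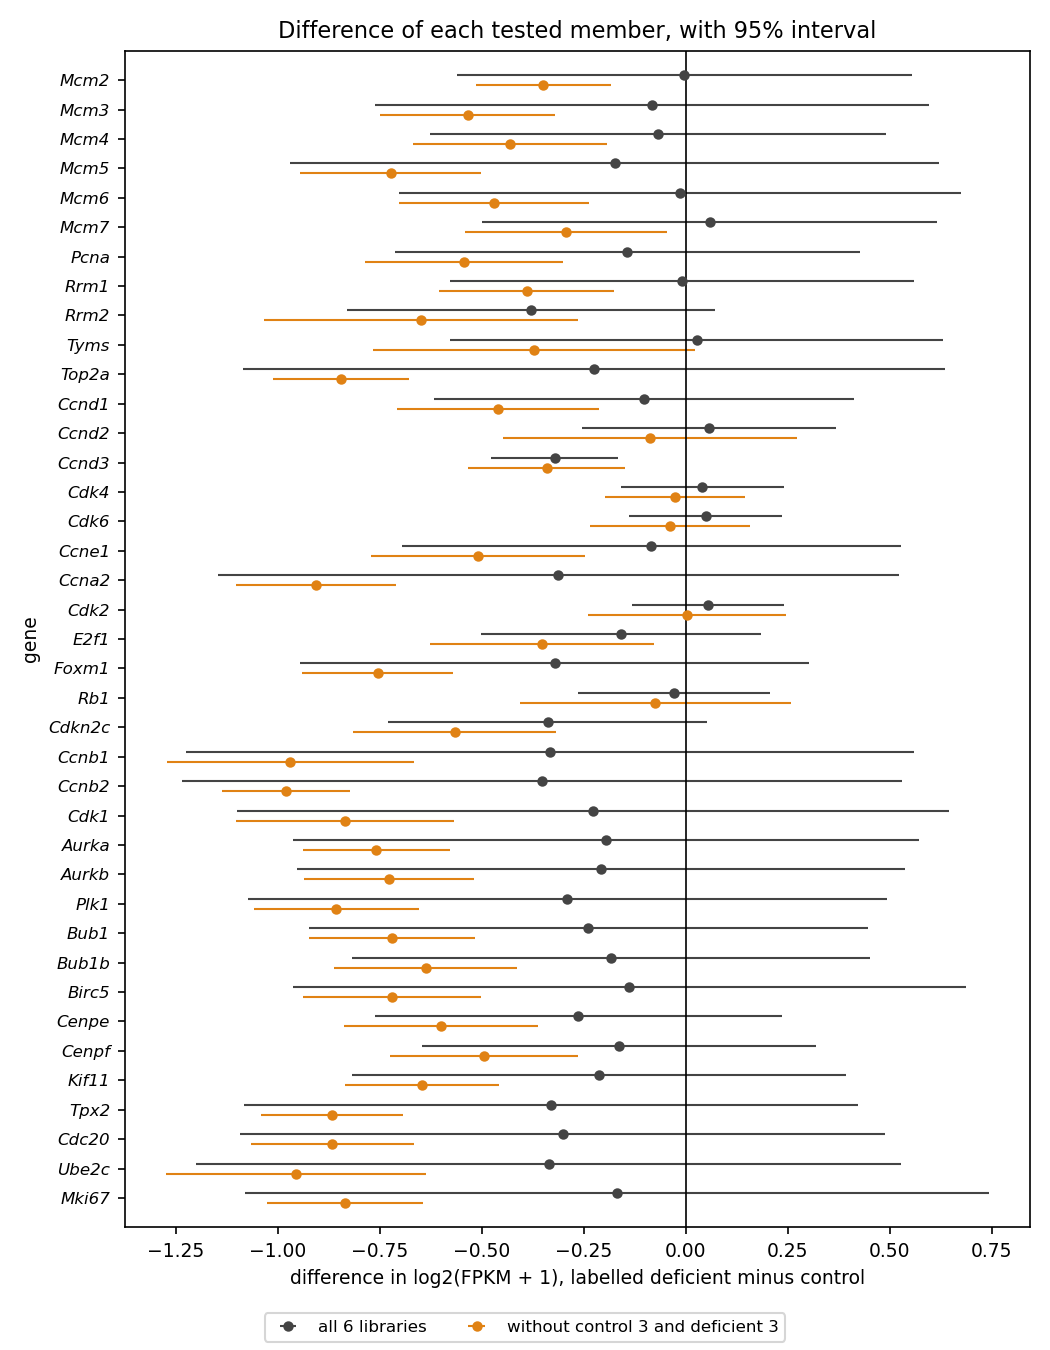
Difference in log2(FPKM + 1), labelled deficient minus control, with its 95% interval for each of the 39 tested members, from all 6 libraries (grey) and without control 3 and deficient 3 (orange). With all libraries each interval except that of Ccnd3 spans 0. Without control 3 and deficient 3 the differences run from -0.98 in Ccnb2 to 0.0032 in Cdk2.

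A further 100 genes of the cell cycle, not among the 40, were listed by function, and 97 were tested. With all 6 libraries 1 fell and 1 rose. Anln, anillin, which shapes the furrow of dividing cells and also binds actin elsewhere, was at 10.6, 12.5 and 8.20 FPKM in controls 1 to 3, and 3.71, 4.47 and 4.98 in deficient 1 to 3. It fell by 1.08 on the log2 scale, with SE 0.16 and a limma adjusted p of 0.023. Cdkn1a, the p21 inhibitor of cyclin-dependent kinases and a p53 target, was at 16.3, 20.1 and 17.7 FPKM against 32.0, 28.4 and 26.3. It rose by 0.65, with SE 0.10 and a limma adjusted p of 0.030. The groups did not overlap in either gene, which was so in 8.16% of all genes tested for lower and 20.8% for higher values. Anln missed the threshold without control 1, control 2, deficient 1 or deficient 2, with a limma adjusted p of up to 0.11, and Cdkn1a missed it without any 1 library but deficient 3, with up to 0.12.

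Of the 37 tested genes of replication 0 passed by limma with all libraries, and 0 had an unadjusted p under 0.05; the smallest p-values belonged to Gins4, Rfc1 and Orc6, at log2 differences of 0.15, 0.13 and -0.11. Of 38 genes of mitosis Anln alone passed, and 2 had an unadjusted p under 0.05. Of 16 genes listed under transcription, which include subunits of the MuvB complex, 0 passed and 0 had an unadjusted p under 0.05. Log2 differences were 0.11 for Lin37, 0.14 for E2f4 and -0.12 for E2f6. Of 6 genes listed as inhibitors of cyclin-dependent kinases Cdkn1a alone passed, and 2 had an unadjusted p under 0.05. The other was Cdkn1c, named after its values were seen, which was lower. It was at 7.60, 7.46 and 10.2 FPKM in controls 1 to 3, and 4.53, 6.47 and 5.65 in deficient 1 to 3. Its groups did not overlap, as in 8.16% of all genes tested for lower values. Its log2 difference was -0.52, with a limma adjusted p of 0.13. The order of the members, with control 3 below controls 1 and 2 and deficient 3 above deficient 1 and 2, held in 76 of the 97 genes, 78.4%. Without control 3 and deficient 3, with the same limit of that choice, 47 of the 97 were called lower and 1, Cdkn1a, higher. Those lower were 11 of the replication list, 32 of the mitosis list, 3 of the transcription list and 1 of the inhibitor list, Cdkn3. Cdkn3, named after its values were seen, was at 5.92, 6.27 and 2.04 FPKM in controls 1 to 3, and 2.92, 2.72 and 4.67 in deficient 1 to 3. That is the order of the mitotic members. Prc1, a midzone protein of the dividing spindle named after its values were seen, was at 15.4, 15.3 and 7.08 FPKM in controls 1 to 3, and 8.04, 8.73 and 14.2 in deficient 1 to 3, the order of the mitotic members.

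Markers of the cell types that the tissue could hold were summed per library. The smooth muscle markers summed to 9599, 9011 and 7805 FPKM in the controls and to 3151, 3693 and 3114 in the libraries labelled deficient, with all 6 called lower by limma, and 0 of 6 had the order of the members. The endothelial markers summed to 107.0, 114.2 and 107.1 FPKM against 106.6, 94.96 and 134.8, so that deficient 3 was highest; all 5 genes were higher in deficient 3 than in deficient 1 and 2, and 3 of 5 also lower in control 3. The uterine natural killer cell markers summed to 4.80, 6.46 and 4.20 FPKM against 7.88, 7.42 and 10.2, lowest in control 3 and highest in deficient 3, with 1 of 7 genes in the members' order. That maximum came from Gzmc, at 5.53 FPKM in deficient 3 and at most 0.78 elsewhere, and without it the sums were 4.72, 6.20 and 3.88 FPKM against 7.09, 6.95 and 4.71. The part of these cells in the members' levels was not tested. The decidual markers summed to 771, 1001 and 761 FPKM against 696, 598 and 511, with 2 of 6 genes in the members' order. Dcn supplied 461 to 658 FPKM of each sum. Prl8a2 was at 154.7, 354.6 and 60.4 FPKM against 5.44, 26.5 and 0.66. Bmp2 and Wnt4, at most 2.08 FPKM, were higher in the libraries labelled deficient, and limma called 0 of the 5 decidual markers tested. Macrophage markers summed to between 421 and 490 FPKM, with 1 of 5 in that order. Epithelial markers summed to 518 to 585 FPKM in the controls and 620 to 781 in the libraries labelled deficient, with 1 of 6 in that order. Limma called 1 of the 5 epithelial markers tested higher and 0 lower. It called 0 of the endothelial, natural killer cell and macrophage markers tested.

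Markers of trophoblast and of embryonic liver and yolk sac were low. The 8 trophoblast markers summed to between 0.62 and 2.57 FPKM, with 7 under 1 FPKM in every library and Gcm1 among them listed at 0 in all, and 1 of 8 had the members' order. The markers of embryonic liver and yolk sac summed to between 0.70 and 4.51 FPKM, highest in deficient 3, and 0 of 6 had the order. Alb alone was at 4.25 FPKM in deficient 3. Erythroid markers summed to 2.92 to 6.09 FPKM in the controls and 12.7 to 24.9 in the libraries labelled deficient, 0 of 7 had the order, and 4 globin genes were listed at 0 in every library.

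RefSeq promoter windows were found for 31 of the 40 members, 34 windows in all since some genes have several starts, and were searched on both strands from 250 bases before to 50 after the start. None was found for Ccne2, Ccnd2, Ccna2, Ccnd1, Tpx2, Rb1, Mcm4, Foxm1 and Aurkb. Windows of a chromosome that holds no member were left out of each set. A CHR word and a CCAAT box together stood in 14 of the 34, 41.2%, against 5.51% of the 12354 windows of genes tested and 7.53% of all 32851 windows searched. A CCAAT box stood in 26 windows, 76.5%, against 37.0% and 37.4%. An E2F word stood in 6 windows, 17.6%, against 3.73% and 2.27%, and a CHR word in 14, 41.2%, against 13.8% and 19.2%. E2F words can overlap one another or a CCAAT box, as in Mcm5, Mcm6 and Mcm7, and TTCGAA reads the same on both strands.

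By role, a CHR word was in 6 of 7 windows of the mitotic genes and in 5 of 7 of the spindle genes, and a CCAAT box in 7 and 6 of them. An E2F word was in 1 of 7 windows of the mitotic genes and in 0 of 7 of the spindle genes. The helicase genes had an E2F word in 4 of 6 windows, a CCAAT box in 6 of 6 and a CHR word in 2. These windows belong to 5 genes, with none for Mcm4 and more than 1 for Mcm7. Replication fork genes had an E2F word in 0 of 5 windows, a CCAAT box in 4 and, for Top2a, a CHR word. The 2 windows of S phase genes held an E2F word in 1, a CCAAT box in 1 and a CHR word in 0. The 3 windows of transcription factors and brakes belong to E2f1 and Cdkn2c and held a CCAAT box in 1 and neither other word in any. The E2f1 window, chr2:154569377-154569676 on the minus strand, lies inside the gene, whose 5' end is at 154569892 in GENCODE. Windows of Cdkn2c, Mcm7 and Cdk6 also lie inside their genes. For these genes the bases before the GENCODE 5' end were not searched, so a word there would have been missed. The 4 windows found for the G1 genes belong to Ccnd3, Cdk4 and Cdk6 and held a CHR word in 0, an E2F word in 0 and a CCAAT box in 1. The windows of Birc5, Ccne1 and Tyms, which varied 2.78, 2.501 and 2.19 times between libraries, also held none of these words. A matching word is a description of the window and not evidence of binding.

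Some levels carry a limit of the annotation. In 13 members an exon overlaps an exon of a gene on the opposite strand, in 10 of them a protein-coding gene, such as Cops6 and Ap4m1 with Mcm7, Tspan31 with Cdk4, Pmel with Cdk2 and Elovl1 with Cdc20. Without strand, reads of such pairs cannot be told apart. The labels do not say how reads shared with processed pseudogenes were counted.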

How the data were processed

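RNA was extracted with TRIzol and sequenced from libraries made by a standard Illumina procedure, per the labels' protocols, for 3 control samples and 3 labelled deficient. The authors deposited FPKM values for 24964 symbols, 1 column per sample. Build mm10, STAR 2.7.0f, cutadapt 2.7 and DESeq2 1.24.0 are named, per the submitters' processing notes, with no role or order. For strand, counting program, annotation and FPKM formula, the sources used here give nothing. FPKM corrects for length and library size only, so abundant transcripts can shift other values.

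Genes averaging 1 FPKM or more (12500) were tested with limma 3.58.1 in R 4.3.3 (lmFit, eBayes with trend) on log2(FPKM + 1), without covariates, with Benjamini-Hochberg adjustment and a threshold of 0.05. This scale understates changes of low genes. The code was tested on simulated data. Single-library depth is unknown. Among values of 0.06 to 0.5 FPKM, the most common ratio to control 1 was 1.0 to 1.01 in each other library. It was held by 105 to 139 genes, against a median of 5 to 6 genes per bin of ratio. Whether depths were equal was not tested. FPKM are not counts, so no count model was fitted. Positions came from GENCODE M21 (40 of 40 members) and promoter windows from RefSeq.

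The members, their roles, the other cell cycle lists and the marker lists were chosen with earlier results of these data known. All members may be named, and of each other list those past the threshold or else the 3 with the smallest p. Genes outside this rule are said to have been named after their values were seen. Alternatives were pseudocounts of 0.1 and 0.5, no filter, a minimum mean of 5 FPKM, a sum of 1000000, median-of-ratios and quantile scaling, no trend, array weights, a block for replicate number, each library left out and, added after the values were seen, control 3 and deficient 3 left out together.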

Additional observations from a re-analysis of the deposited data

How the results depend on the processing

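Under both pseudocounts, no filter and no trend, each count of calls stayed within 1.5 times its value with all libraries. All genes called numbered 417 with all libraries, 1770 with array weights, 143 with the replicate number as a block, 1274 without control 3 and deficient 3 and 99 to 519 with 1 library left out. Members called numbered 1 with a minimum mean of 5 FPKM, with quantile normalization and with median-of-ratios scaling (Ccnd3 each time), 2 with array weights (Ccnd3 and Cdkn2c), 26 without control 3 and deficient 3, 0 with the block and 0 to 0 with 1 library left out. Other cell cycle genes called numbered 5 with array weights, 0 with the block, 48 without control 3 and deficient 3 and 0 to 2 with 1 library left out. The members' median difference was -0.60 without control 3 and deficient 3 and -0.46 to -0.05 with 1 library left out. The split of all called genes into higher and lower was 168 and 249, but 218 and 211 after rescaling, 123 and 391 with median-of-ratios scaling and 131 and 336 with quantile normalization.

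The replicate numbers did not pair the libraries: deviations of same-numbered libraries correlated at -0.14, 0.08 and -0.13, and not every library correlated best with its own number.

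Signs turned for members near 0. The difference of Mcm2 was 0.0021 with a pseudocount of 0.1. After rescaling to a common sum it was 0.044 for Mcm2, 0.034 for Mcm6, 0.037 for Rrm1 and 0.012 for Rb1. With median-of-ratios scaling it was -0.0062 for Mcm7, -0.027 for Tyms, -0.029 for Cdk4, -0.0057 for Cdk6 and -0.0093 for Cdk2. With quantile normalization it was -0.034 for Tyms, -0.00067 for Ccnd2 and -0.0092 for Cdk6. With array weights it was -0.21 for Mcm7, -0.16 for Tyms, -0.10 for Ccnd2, -0.022 for Cdk4, -0.020 for Cdk6 and -0.018 for Cdk2. Without control 3 and deficient 3 it was -0.29 for Mcm7, -0.37 for Tyms, -0.087 for Ccnd2, -0.026 for Cdk4 and -0.039 for Cdk6. With 1 library left out, differences ran from -0.28 to 0.14 for Mcm2, from -0.41 to 0.089 for Mcm3, from -0.33 to 0.069 for Mcm4, from -0.54 to 0.033 for Mcm5, from -0.34 to 0.15 for Mcm6, from -0.20 to 0.20 for Mcm7, from -0.36 to 0.020 for Pcna, from -0.27 to 0.15 for Rrm1, from -0.21 to 0.23 for Tyms, from -0.30 to 0.055 for Ccnd1, from -0.026 to 0.18 for Ccnd2, from -0.032 to 0.082 for Cdk4, from -0.34 to 0.082 for Ccne1, from -0.094 to 0.072 for Rb1, from -0.51 to 0.078 for Birc5 and from -0.54 to 0.027 for Mki67. The cause of these changes was not tested. With 3 libraries a group of unknown depth, intervals were wide, and those that span 0 do not exclude differences within them.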

Other observations

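Other genes, all named after their values were seen, had control 3 below controls 1 and 2 and deficient 3 above deficient 1 and 2, the order of most cell cycle members, with wider gaps. Hdc, histidine decarboxylase, which makes histamine, was at 40.3, 40.5 and 14.5 FPKM in controls 1 to 3 and at 8.002, 9.31 and 49.9 in deficient 1 to 3. Trpv6, a calcium channel of epithelia, was at 166.8, 119.2 and 29.0 FPKM against 117.5, 119.4 and 292.5. Fgfbp1, a carrier of fibroblast growth factors, was at 5.57, 4.23 and 0.81 FPKM against 0.35, 0.28 and 8.62. Ordered by the summed size of both gaps on the log2 scale, these ranked 5, 8 and 2 among the 2707 genes tested with that order, and Mki67 and Ccnb1, the first members, ranked 47 and 49. Whether these genes share a source with the cell cycle members was not tested.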
